A study of Schizosaccharomyces pombe with 30 samples.

Results

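The genes described here encode the cytoplasmic translation elongation factors of the fission yeast *S. pombe*: tef101, tef102 and tef103 (eEF1A), eft201 and eft202 (eEF2), and tef3 (eEF3). They were chosen by symbol in the RefSeq annotation of assembly ASM294v3, 6 of 5113 protein-coding genes. Seb1 crosslinks were counted on the strand of each gene from the annotated transcription start site to 250 nt after the annotated 3′ end. This gave 43 of the 15824 listed crosslinks, 0.272% of them. The crosslinks come from 1 PAR-CLIP library of cells in which the seb1 gene carries a TAP tag (genotype h-, seb1::seb1-TAP::KanMX), and the series holds 29 further RNA-Seq and ChIP-Seq samples that were not analysed here. The cells grew at 30 °C in minimal medium with 10 mg/l uracil, 4% glucose and 100 µM 4-thiouracil, received a further 900 µM 4-thiouracil for 4 h, and were irradiated with 12 J/cm2 of long-wave UV light. The listed occupancy uses 1 RNA-Seq library of h- cells without the tag, labelled in the same way. No replicate and no second condition exists, so no test was made, and every interval given covers counting error only and treats sites as independent.

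Elongation factors carry the ribosome through the cycle of adding amino acids. The GTPase eEF1A brings aminoacyl-tRNA to the ribosome, the GTPase eEF2 drives translocation along the mRNA, and eEF3 is an ATPase of fungi that acts in the release of the outgoing tRNA. These genes are among the most strongly expressed of a growing yeast cell. Seb1 is a termination factor with a domain that binds the phosphorylated C-terminal domain of RNA polymerase II and a domain that binds RNA. In PAR-CLIP the photoactivated 4-thiouracil of an RNA bonds to the protein that touches it, and the crosslinked base is later read as C in place of T. A site is therefore described by its transitions (reads with the T-to-C change), by the reads that cover it, and by its occupancy, which is the transitions divided by RNA-Seq coverage at that base.

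After the annotated 3′ ends the RNA of these genes was rich in UGUA, the motif of Seb1 crosslinks, and most crosslinks lay in or near it. The following stretches are shown because they hold most crosslinks after the 3′ ends. They are from RefSeq (ASM294v3), printed 5′ to 3′ on the strand of the gene as DNA, with TGTA in capitals and positions counted from 1 at the first base after the annotated 3′ end.
tef101, positions 46 to 100 (chrIII:267855-267909, minus strand): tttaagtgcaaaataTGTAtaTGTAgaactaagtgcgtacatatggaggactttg
tef103, positions 1 to 60 (chrII:625944-626003, minus strand): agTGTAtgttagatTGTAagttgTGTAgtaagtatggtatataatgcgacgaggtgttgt
eft201, positions 81 to 140 (chrI:2907503-2907562, minus strand): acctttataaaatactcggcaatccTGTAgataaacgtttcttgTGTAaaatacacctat
eft202, positions 11 to 150 (chrIII:539933-540072, plus strand): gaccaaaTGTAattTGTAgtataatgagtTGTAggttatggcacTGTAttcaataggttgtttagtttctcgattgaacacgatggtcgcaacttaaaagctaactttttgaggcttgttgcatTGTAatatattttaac
tef3, positions 61 to 140 (chrIII:1689012-1689091, plus strand): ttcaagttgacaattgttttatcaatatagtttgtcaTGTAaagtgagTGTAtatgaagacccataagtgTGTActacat
For tef102, whose annotation stops at the stop codon, and for sites inside transcripts, 25 nt with the crosslinked base at position 13 are shown.
tef102, crosslink at position 72 (chrI:4096644-4096668, plus strand): ttgatttaaaacTGTAgctgcagta
tef101, crosslink in the 5′ UTR (chrIII:269475-269499, minus strand): aaaaaatttaatTGTAaaaaatggg
tef101, the 3′ UTR crosslink with the most transitions (chrIII:268035-268059, minus strand): tTGTAatcaggataggctagtgaat

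All 6 genes had at least 1 crosslink, against 67.3% of all protein-coding genes, and all 6 had at least 1 in the 250 nt after the 3′ end, against 25.8%. Of 60 other genes with high RNA-Seq coverage, a group described below, 78.3% had at least 1 there. At least 6 crosslinks were found in 5 of the 6, against 10.0% of protein-coding genes. eft201 had no site left when at least 3 transitions or at least the median read coverage of the list were required, or when 100 nt after the 3′ end were counted, so that 5 of the 6 genes had a site under each of these settings. Of all 5113 protein-coding genes, 1646, 1919 and 3309 had a site under these settings, in the same order. Of the 43 crosslinks 29 lay after the 3′ end, 8 in 3′ UTRs, 4 in coding sequences and 2 in a 5′ UTR. Summed over sites, which counts a read at every site it covers, they had 255 transitions in 4024 reads. Each site had 2 to 16 transitions (median 5, whole list 2) and 7 to 368 reads (median 63, whole list 13). The share of covering reads with the transition had a median of 7.58% per site, against 18.2% at other protein-coding genes of at least 1000 nt. Sites of those genes had a median of 2 transitions and 12 reads, and the share was not adjusted for this lower depth. By number of crosslinks the order was tef101 with 11 (95% Poisson interval 5.49 to 19.7), eft202 with 10 (4.79 to 18.4), tef103 with 8 (3.45 to 15.8), tef102 and tef3 with 6 each (2.20 to 13.1) and eft201 with 2 (0.242 to 7.22). All of these intervals overlap, also those of tef101 and eft201 at the ends of the order, and the numbers are not adjusted for gene length.

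**Figure D1:**
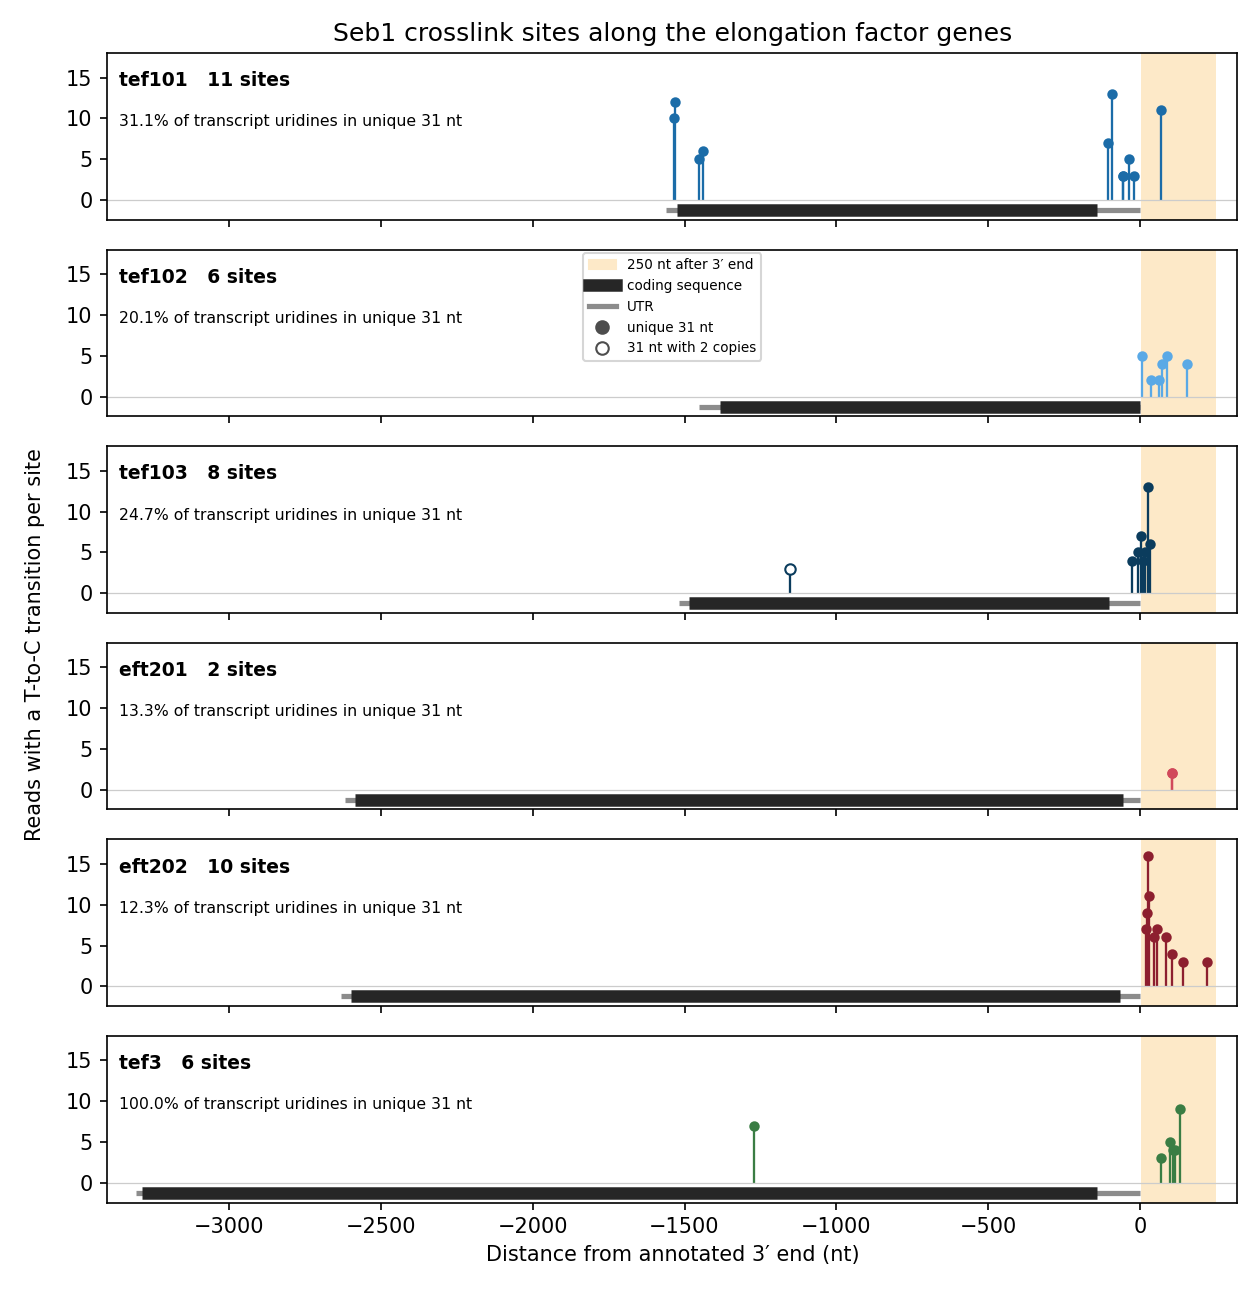
Transitions per crosslink (y axis, reads) against the distance from the annotated 3′ end (x axis, nt) for each of the 6 genes, with the coding sequence in black, UTRs in grey and the 250 nt after the 3′ end shaded; the open symbol marks the 1 site whose 31 nt occur at 2 places in the genome. The sites gather on either side of the 3′ end, 29 of the 43 of them after it, and tef101 alone has sites near the start of the transcript.

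Placed by the annotated 3′ ends, the eEF1A genes differed in where Seb1 was crosslinked. Their annotated 3′ UTRs are 142 nt (tef101), 0 nt (tef102) and 102 nt (tef103) long. The same distance from the stop codon can therefore fall on either side of the annotated end. tef101 (SPCC794.09C, chrIII:267955-269516, minus strand, 1562 nt, 1 coding exon) had 2 crosslinks in its 5′ UTR, 2 in its coding sequence, 6 in its 3′ UTR and 1 after its 3′ end. The neighbouring bases in the 5′ UTR, 29 and 30 nt from the transcription start site, had 10 transitions in 341 reads and 12 in 368, the largest read number at any of the 43 sites. The second of them is the first U of a UGUA, the sequence shown above. In the 3′ UTR the numbers of transitions were 7, 13, 3, 3, 5 and 3 at 107, 92, 57, 56, 37 and 20 nt before the 3′ end, in 19 to 354 reads. The one crosslink after the 3′ end, at position 67, had 11 transitions in 80 reads, and it is again the first U of a UGUA. The strand opposite to tef101 carries efr3 across its 3′ end and the non-coding gene SPNCRNA.6769 across its 5′ end, so 7 of its sites also lie within an annotated gene of the other strand. The next gene on its own strand, SPNCRNA.6768, starts 909 nt after the 3′ end.

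tef102 (SPAC23A1.10, chrI:4095132-4096584, plus strand, 1453 nt, 1 coding exon) had 6 crosslinks, all after the annotated 3′ end. They lay at positions 7, 36, 60, 72, 87 and 154 and had 5, 2, 2, 4, 5 and 4 transitions in 39, 7, 14, 33, 66 and 44 reads. The annotated end of this gene is its stop codon, with a 3′ UTR of 0 nt, so that the first of these positions may be part of the mRNA, which cannot be told apart with this annotation. The RNA-Seq coverage inferred from the occupancy was 2022 reads at position 7 and 417 at position 36, against 22, 23, 14 and 4 at the later positions. Occupancy was 0.00247 and 0.0048 at the first pair and 0.0909, 0.174, 0.357 and 1 at the others, and the value of 1 is the maximum of the list and rests on 4 transitions. At that maximum the inferred coverage equals the transitions by construction, so the true coverage there may be lower than 4. The gene rbm8 on the same strand reaches into the 5′ end of tef102, where no crosslink was listed, and rpl1602, the next gene downstream on that strand, starts 742 nt after it.

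tef103 (SPBC839.15C, chrII:626004-627522, minus strand, 1519 nt, 1 coding exon) had 8 crosslinks, 7 of them between 28 nt before and 33 nt after the 3′ end. The 2 in the 3′ UTR, at 28 and 7 nt before the end, had 4 transitions in 50 reads and 5 in 42. The 5 after the end, at positions 3, 9, 14, 24 and 33, had 7, 4, 5, 13 and 6 transitions in 53, 70, 91, 132 and 164 reads and spanned 31 nt. The strongest by transitions, at position 24, is the first U of the third UGUA in the stretch shown, and position 3 is the first U of its first UGUA. The remaining site lay in the coding sequence, with 3 transitions in 42 reads, and its surrounding 51 nt also occur in tef102, where no site is listed. SPNCRNA.1375 starts 87 nt after tef103 on the same strand, and no crosslink of tef103 lay inside it.

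The eEF2 genes had crosslinks only in the 250 nt after their 3′ ends, within the window counted. eft202 (SPCP31B10.07, chrIII:537290-539922, plus strand, 2633 nt, 1 coding exon) had 10, at positions 18, 23, 25, 30, 46, 55, 85, 104, 142 and 220. They had 7, 9, 16, 11, 6, 7, 6, 4, 3 and 3 transitions, in 40 to 147 reads, and the first 6 of them spanned 38 nt with 56 of the 72 transitions of the gene. The site with the most transitions of all 43, at position 25, is the first U of a UGUA, as are the sites at positions 18 and 55. eft201 (SPAC513.01C, chrI:2907643-2910261, minus strand, 2619 nt, 1 coding exon) had 2 crosslinks, at positions 103 and 106, each with 2 transitions in 10 reads. The second is the first U of a UGUA. Because their read numbers are equal and they lie 3 nt apart, these sites may rest on the same reads, which the list does not show. The genes encode the same protein of 842 amino acids, yet eft202 had up to 147 reads at a site after its 3′ end and eft201 had 10. Summed over sites the reads were 1111 and 20, which counts a read at every site it covers. The inferred RNA-Seq coverage was 37 to 72 at the eft202 sites and 13 at those of eft201. tcb3 begins 429 nt after eft201 and SPNCRNA.6898 begins 273 nt after eft202, each on the same strand.

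tef3 (SPCC417.08, chrIII:1685645-1688951, plus strand, 3307 nt, 1 coding exon) had 5 crosslinks after its 3′ end and 1 in its coding sequence. Those after the end, at positions 67, 98, 109, 115 and 131, had 3, 5, 4, 4 and 9 transitions in 30, 50, 63, 59 and 78 reads, and 4 of them spanned 34 nt. Positions 98, 109 and 131 are the first U of the 3 UGUA in the stretch shown. The coding-sequence site, 1271 nt before the 3′ end, had 7 transitions in 185 reads and an occupancy of 0.00278. A further crosslink of 3 transitions lay 565 nt after the 3′ end, beyond the window counted and before the tRNA gene sup9, which begins at 762 nt. Another, 806 nt after the 3′ end, lay inside sup9 and had 5 transitions in 49 reads and an occupancy of 0.625.

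Pooled over the genes, the median occupancy was higher after the 3′ ends than inside the transcripts, where tef101, tef103 and tef3 alone had sites. Over the 29 sites after the end it was 0.00247 to 1 (median 0.0962), and over the 14 sites inside transcripts 0.000103 to 0.136 (median 0.00101). The inferred RNA-Seq coverage, its denominator, was 4 to 2022 reads (median 52) after the end and 80 to 29084 reads (median 4146) inside. The sites after the end made up 93.9% of the summed occupancy of 4.60, but 66.3% of the transitions. After the end of other protein-coding genes of at least 1000 nt, the median occupancy was 0.0978 over 1866 sites. The difference inside transcripts goes with coverage: in the last 250 nt before the 3′ end the median was 0.000996 for the elongation factor genes, at a median coverage of 4146, against 0.0333 at a coverage of 74 for the other genes. How far RNA-Seq coverage sets this difference was not tested. The 5′ UTR sites of tef101 stood apart with an occupancy of 0.125 and 0.136, above the 0.0647 of its site after the 3′ end, at a coverage of 80 and 88 reads near the transcription start.

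**Figure D2:**
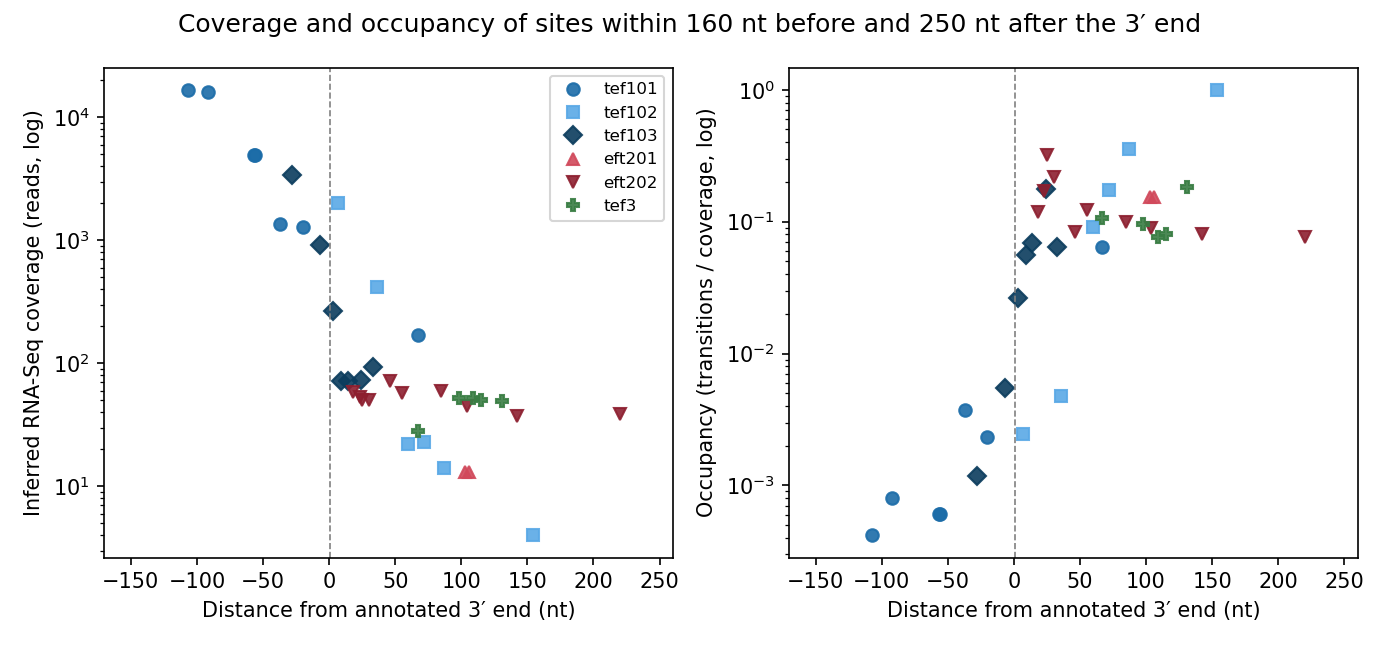
RNA-Seq coverage inferred from the occupancy (left, reads, log axis) and occupancy (right, transitions over coverage, log axis) against the distance from the annotated 3′ end (x axis, nt) for each site from 160 nt before to 250 nt after it, with 1 symbol per gene. Coverage lies at 918 to 16719 reads before the dashed 3′ end and at 4 to 264 after it except at the first pair of tef102 sites, at 2022 and 417, and occupancy runs the other way.

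UGUA lay within 25 nt of 28 of the 43 sites (65.1%, Wilson 95% interval 50.2 to 77.6%), against 39.7% (38.8 to 40.7%) of 9379 sites at 4261 other protein-coding genes of at least 1000 nt. The motif was searched as the letters TGTA in the 51 nt centred on the crosslink, on the crosslinked strand. With clusters of sites closer than 10 nt counted once, 32 sites were left at the 6 genes and the share was 56.25%. The share at the other genes was not computed in this way. After the 3′ end the share was 23 of 29 (79.3%, 61.6 to 90.2%), against 60.1% (57.9 to 62.3%), intervals that overlap slightly. The crosslinked base was the first U of UGUA at 12 sites (27.9%, 16.8 to 42.7%), against 11.8% (11.2 to 12.5%) of sites at the other genes. The shares of 65.1% and 27.9% pool all regions, and neither comparison was adjusted for region. At the 6 genes 67.4% of the sites lay after the 3′ end, against 19.9% at the other genes. Read from the motif, the 250 nt after the 3′ ends of the 6 genes held 21 UGUA, of which 11 had a crosslink on the first U (52.4%, 32.4 to 71.7%) and 19 had one within 25 nt. Of the 7643 UGUA after the ends of the other genes, 4.76% (4.31 to 5.26%) had a crosslink on the first U and 14.8% one within 25 nt. These shares were not adjusted for depth, and sites of the other genes had a median of 12 reads, against 63 here. After their ends, other genes of high coverage, described below, had 12.1 crosslinks per kb, those of lower coverage 2.05 and the elongation factor genes 19.3. The UGUA at position 173 of tef101 and that at position 38 of eft201 had no crosslink within 25 nt.

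Inside the transcripts the motif was sparser. The elongation factor genes held 14.0 UGUA per kb after the 3′ end, against 7.17 per kb at the other genes, but 1.19 per kb in the gene body, against 3.59. The gene body is the transcript without its first and last 250 nt. All 6 stretches of 250 nt after the 3′ end held UGUA, as did 82.6% of those of all protein-coding genes, and 5 of the 6 held at least 3, against 27.9%. On the opposite strand of these stretches UGUA also occurred in 6 of 6, against 74.5%. Of the 17 UGUA inside the transcripts, 2 had a crosslink within 25 nt (11.8%, 3.29 to 34.3%), both in tef101. At the other genes the share was 7.01% (6.76 to 7.27%) of 37477, which lies within the interval of the elongation factor genes. These shares were not adjusted for depth. The 4 UGUA in the body of tef3 and the 4 in the body of each eEF2 gene had no crosslink within 25 nt.

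**Figure D3:**
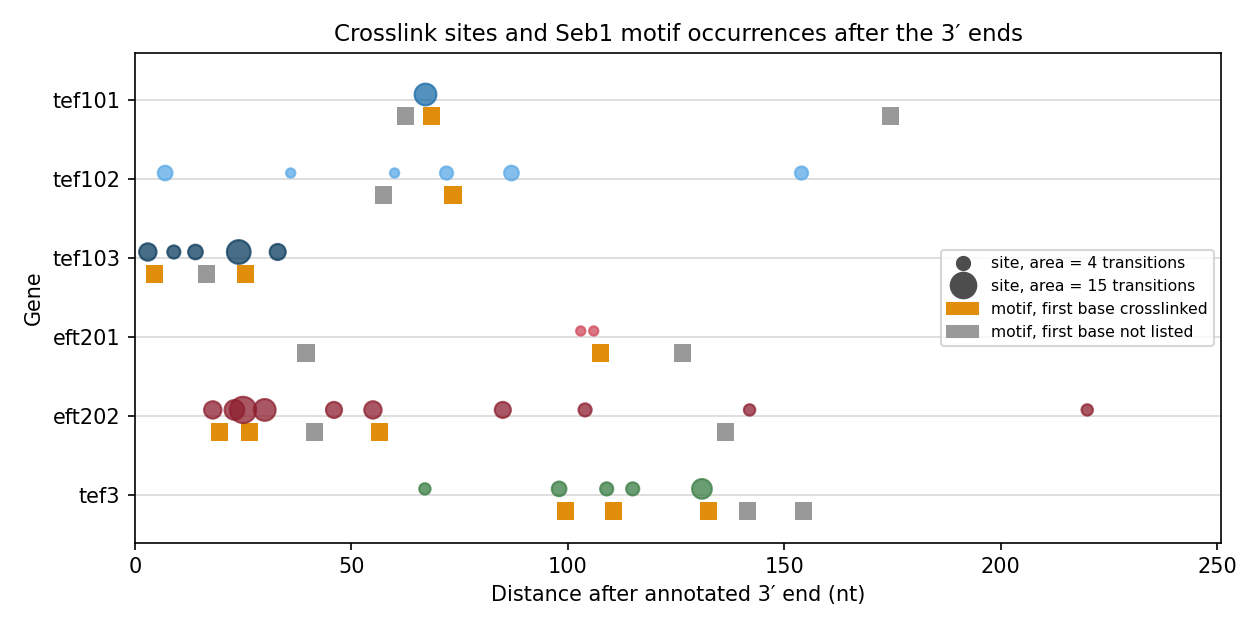
Position (x axis, nt after the annotated 3′ end) of each crosslink (circles, area in proportion to transitions) and each Seb1 motif (bars of 4 nt below them) for the 6 genes (y axis). The first base is crosslinked at 11 of the 21 motifs, drawn in orange, and in every gene at least 1 motif is of this kind.

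Near-identical paralogues limit what can be read from the coding sequences. The coding sequences of the 3 eEF1A genes are 98.6 to 98.9% identical, with 15 to 19 mismatches over 1383 nt, and those of eft201 and eft202 are 99.6% identical, with 11 mismatches over 2529 nt. After the 3′ ends no such likeness remains, with 44.6 to 50.4% identity in aligned 250 nt stretches. Only 25.5% of the uridines in eEF1A transcripts and 12.8% of those in eEF2 transcripts sit in 31 nt that occur once in the genome, against 100% after the 3′ ends and 100% throughout tef3. Of the 43 sites 42 were in unique 31 nt. Inside the transcripts this was 8.54 sites per 1000 unique uridines and 0.411 per 1000 repeated ones, pooled over UTRs and coding sequences. In the gene bodies alone the numbers were 0.963 and 0.491, from 1 site each, and the eEF2 transcripts had 0 sites over 218 unique uridines. How the authors treated reads with several matches is not given in the sources used here, and its part in the number of coding-sequence sites was not tested. tef3, which has no such copy, had 1 site over 838 uridines of its gene body. This is 1.19 per 1000 uridines, from that 1 site, against 2.01 (1.96 to 2.07) in the gene bodies of the other genes.

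Counted over uridines in unique 31 nt, the elongation factor genes had 54.4 crosslinks per 1000 after the 3′ end (95% Poisson interval 36.4 to 78.1), against 5.17 (4.94 to 5.41) after the ends of the other genes. In the gene body the numbers were 0.963 per 1000 unique uridines (0.0244 to 5.36), from 1 site, against 2.01 (1.96 to 2.07) over all uridines of the other genes, a difference not detectable at this depth. The last 250 nt had 25.6 (11.0 to 50.4) per 1000, against 3.77 (3.58 to 3.96), and these sites belonged to tef101 and tef103. The first 250 nt had 23.4 (6.37 to 59.9), against 3.21 (3.02 to 3.40), and all 4 of these sites belonged to tef101. Over all uridines of the elongation factor genes, repeated ones included, the last 250 nt had 16.5 (7.14 to 32.6) per 1000 and the first 250 nt had 10.1 (2.75 to 25.8), an interval that contains the value of the other genes. These rates were not adjusted for RNA-Seq coverage and were not computed for the 60 other genes of high coverage, described below. Those 60 genes had 397 crosslinks, 79 in the gene body, 182 after the 3′ end and the rest in the first or last 250 nt.

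**Figure D4:**
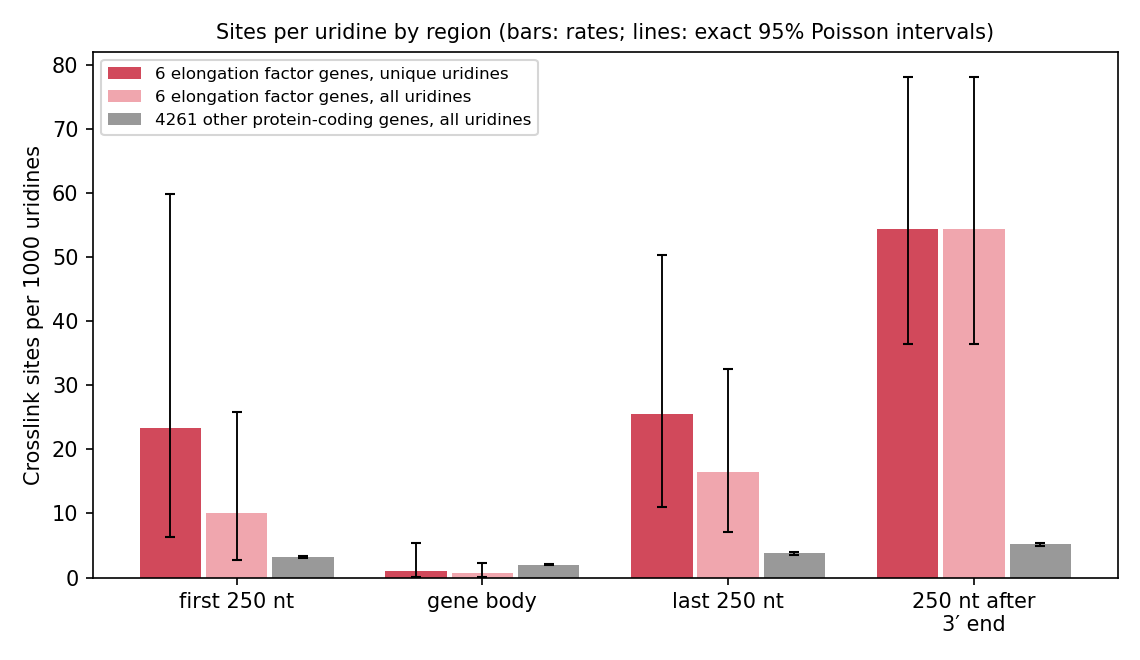
Crosslinks per 1000 uridines (y axis) in 4 regions (x axis) for the 6 elongation factor genes over unique uridines (red) and all uridines (pink) and for 4261 other protein-coding genes of at least 1000 nt (grey), with exact 95% Poisson intervals. The red bar after the 3′ end stands at 54.4 and the grey one at 5.17, while the intervals in the gene body overlap.

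By length, 67.4% of the crosslinks of the elongation factor genes lay after the 3′ end (52.5 to 79.5%), against 19.9% (19.1 to 20.7%) at the other protein-coding genes. The ratio of crosslinks per kb after the 3′ end to those in the gene body was 97.6 (exact conditional interval 24.7 to 844), with 29 sites against 2, and 2.72 (2.58 to 2.87) at the other genes. Over uridines in unique 31 nt in both regions, a setting added after the values were seen, the ratio was 56.5 (9.37 to 2309), with 29 sites against 1. Coverage moved with this difference. Among the other genes, 60 had a median inferred coverage of at least 1000 reads over the sites inside their transcripts, a split made after the values were seen, and they had 45.8% (41.0 to 50.8%) of their sites after the 3′ end and a ratio of 10.8. Their density after the end was 12.1 crosslinks per kb (10.4 to 14.0), against 19.3 (12.9 to 27.8) for the elongation factor genes, and these intervals overlap. The 2718 genes of lower coverage had 16.0% (15.3 to 16.8%) after the end and 2.05 crosslinks per kb there. At least 1 site after the end was found in 47 of the 60 genes (78.3%) and in 29.5% of the 2718. A gene entered this split only with a site inside its transcript, which tef102, eft201 and eft202 lack.

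Other genes of translation were read as a list. Of 38 symbols of initiation, release, mitochondrial elongation and accessory elongation factors 34 matched the annotation, and 31 of these had a site (67.3% of all protein-coding genes did), with a median of 3 sites, against 7 for the elongation factor genes, and 1 over all protein-coding genes. Of the 34, 17 had a site after the 3′ end, against 25.8% of all protein-coding genes, and 11 had at least 6 sites, against 10.0%. The symbols pab1, nip1, new1 and arb1 name genes of other functions in this species, and without them, left out after the values were seen, 28 of 30 genes had a site and 16 had one after the 3′ end. The most sites were at sum3, an RNA helicase of initiation, with 12, of which 5 were after the 3′ end. tef5, the exchange factor that reloads eEF1A with GTP, had 10, of which 9 were after the end. tif213, the gamma subunit of eIF2, had 10 with 5 after the end, and tif512, an eIF5A gene, had 9 with 5 after the end. tif471, which encodes eIF4G, and moe1, an eIF3 subunit, had 8 each with 2 after the end.

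Among 129 other protein-coding genes with at least 10 crosslinks, the distribution over the first 250 nt, the body, the last 250 nt and the 250 nt after the 3′ end was closest to that of the pooled elongation factor genes at fba1 (aldolase of glycolysis) and met26 (homocysteine methyltransferase). Each had 16 crosslinks, 11 of them after the 3′ end, and the 4 shares differed from those of the elongation factor genes by 0.0611 in sum. ssc1, a chaperone gene, had 16 with 12 after the end, the unnamed SPAPB24D3.07C had 19 with 13, and arf1 had 10 with 7.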

How the data were processed

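The data are 1 list of Seb1 crosslinks from 1 PAR-CLIP library. It gives, as deposited by the authors and not normalized, the count of reads carrying a T-to-C transition at a site and the count of reads covering it. A p-value, deposited too, was not used, and the occupancy was deposited as a ratio. At all 15824 sites the transitions divided by the occupancy gave a whole number (relative tolerance 1e-09), which was taken as RNA-Seq coverage. The processing notes name Bowtie 1.1.1 and ASM294v2 among other tools. The site calling and the handling of reads with several matches are not given in the sources used here.

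Positions were read on ASM294v3, where all 15789 nuclear sites fell on a T of their strand, and 35 other sites were left out. Regions were the first 250 nt, the body, the last 250 nt and 250 nt after the 3′ end. Uniqueness was judged by 31 nt on both strands. Shares have Wilson intervals, and numbers and ratios have exact ones. The code for the ratio was run on simulated sites at 2594 genes with a planted ratio of 5 and returned 5.18 (4.95 to 5.42). This run does not cover a ratio from as few genes and sites as reported here. Named were all 6 genes, their neighbours, the 5 genes of the translation list with most sites (with a tie) and the 5 genes most alike. For members with over 6 sites this rule asks for the 5 with most transitions and the farthest, and the others were added after their values were seen. The members and lists were chosen with earlier results of these data known. Python 3.11.15, numpy 2.4.6, pandas 2.3.3, scipy 1.17.1 and biopython 1.88 were used.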

Additional observations from a re-analysis of the deposited data

Results flagged for a closer look

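On the strand opposite to the elongation factor genes 5 crosslinks were listed between the transcription start site and 250 nt after the 3′ end, and the comparisons above did not use them. All 5 faced eft202, at positions 171, 217, 226, 245 and 250 after its 3′ end, with 4, 3, 3, 3 and 5 transitions in 32 to 52 reads. They lay 34 to 113 nt after the 3′ end of rpl35A01, a ribosomal protein gene that converges on eft202. They are given here because they lie outside the strand that was compared.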

How the results depend on the processing

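There were 86 alternative values of the results on all 6 genes and of the number of protein-coding genes with a site. Of these 78 stayed within 1.5 times the reported count or sum, or within the interval of the reported share or ratio, and 8 did not. The interval of the density ratio, 24.7 to 844, is so wide that staying within it says little. With 500 nt after the 3′ end, or without sites inside another gene on the same strand, the 6 genes kept all 43 sites. Without tef101 the share of sites after the 3′ end was 87.5% and without tef102 the summed occupancy was 2.97. With 100 nt after the 3′ end the summed occupancy was 2.71. Weighted by occupancy, the share after the end was 93.9% and the density ratio 10100, by the low occupancy of the 2 body sites. UGUA within 50 nt was found at 79.1% of sites. With at least the median read coverage 1919 protein-coding genes had a site, and with at least 3 transitions 1646 did, fewer than the 3443 of the whole list because sites were removed. For the numbers of sites in single genes 41 values stayed within 1.5 times and 7 did not. eft201 had 0 sites under both filters, with 2 transitions in 10 reads at each of its sites, and 0 with 100 nt, since they lie at positions 103 and 106. By length the density ratio of sites was 48.8 to 195 over the alternatives, and 56.5 per unique uridine, added after the data were seen. The 195 leaves out the repeated body site but keeps the full body length. The ratio without 1 gene at a time was 60.5 to 174. With clusters of sites closer than 10 nt counted once, the share after the 3′ end was 62.5% and the ratio 67.3. The few sites of 1 library limit every value. No paired analysis was possible because the only library analysed has no second group.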
